A study of Mus musculus with 2 samples.

Results

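The integrated stress response genes described here were Atf4 and 9 genes known as its partners or targets: Ddit3, Asns, Trib3, Chac1, Sesn2, Psat1, Phgdh, Atf3 and Atf5. They were chosen by symbol, because tomatidine is known as an inhibitor of ATF4 activity, and all 10 were found among the 19059 genes of both libraries. A further 119 genes of the same pathways were taken from written lists. Both groups were C57BL/6 mice, 21 months old when the diets began; the study used both sexes, and the sex of the pooled mice is not given in the sources used here. For 3 months the tomatidine group ate chow with 0.05% tomatidine, a steroidal alkaloid of tomato, and the control group ate chow without it. Flash-frozen hippocampus from 4 mice was pooled per group, and the fixed cells were profiled as 1 library per group with a probe-based kit, in which probes bound to transcripts are counted. Since no group had a second library, no p-value is given, and the diet cannot be told apart from anything else that differed between the 2 pools.

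When translation initiation factor eIF2 is phosphorylated by one of its kinases, which sense amino acid shortage, unfolded protein, viral RNA or lack of haem, general translation slows while the Atf4 message is translated more. The ATF4 protein then drives genes for amino acid synthesis and uptake, for redox balance and for its own feedback. ATF4 is set largely at translation, so the level of its message, which is what was counted here, does not give the level of the protein.

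The control library held 15912 cells with 279525565 UMIs (molecules counted once each) and the tomatidine library 15185 cells with 259059908. After filters on quality, 15115 and 14502 cells remained, with a median of 7077 and 7408 UMIs. Cells were clustered without the genes reported here, and the clusters were named "-like" from marker genes. Of 40 clusters, 11 stayed unnamed, with 14.8% of the control and 16.3% of the tomatidine cells. Markers of dentate granule, CA1 and CA3 neurons were present, as the label hippocampus implies, but so was a class with markers of thalamic or other subcortical neurons (below, subcortical neuron-like), with 813 control and 1078 tomatidine cells. In that class 1 cluster, led by Pou4f2, held 172 control and 669 tomatidine cells. Choroid plexus-like cells numbered 343 and 31, too few in the tomatidine library to compare. The libraries shared 292 cell barcodes, 1.84% of the control and 1.92% of the tomatidine barcodes.

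The C/EBP-ATF response element, the site at which ATF4 binds DNA with a C/EBP partner, was searched for as TGATGNAA on both strands in the RefSeq promoter windows of the members, each of 300 bases on GRCm38.p6. The 4 members with a match were Atf3, Chac1, Trib3 and Asns, which came to 4 of the members' 12 windows, while 3.97% of all 32851 windows held one. Since the members were chosen as known partners or targets of ATF4, their share of windows is no separate evidence of that. The stretches around the matches are shown for every member whose window held one, with the match in capitals and the strand of the gene printed.
Atf3 (chr1:191183410-191183469, minus strand): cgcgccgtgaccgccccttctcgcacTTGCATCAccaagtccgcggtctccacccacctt
Chac1 (chr2:119351023-119351082, plus strand): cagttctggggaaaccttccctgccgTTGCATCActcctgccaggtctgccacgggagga
Trib3 (chr2:152344029-152344056, minus strand): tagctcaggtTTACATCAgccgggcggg
Asns (chr6:7693215-7693242, minus strand): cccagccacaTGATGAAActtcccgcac
In Atf3, Chac1 and Asns the match lay 110, 193 and 23 bases before the RefSeq start, and in Trib3 it lay 14 bases after it. The Asns match fell in an annotated 5′ UTR exon of GENCODE and the other matches in no exon. A match is a string of letters and not a measured binding site.

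The question put to these data was whether the message of Atf4 and of its targets differed between the libraries. For each class the UMIs of a gene were summed per library and divided by all UMIs of the class there, given as UMIs per 1000000 of the class (CPM). The log2 ratio of tomatidine over control has an exact 95% interval, which covers counting error only and not the spread between mice. A gene was called higher or lower in a class when its log2 ratio was at least 0.32 above or below 0, its interval left out 0 and it had at least 50 UMIs over both libraries. Of 90 pairs of a member and a class, 76 had 50 UMIs. Of these, 6 were called higher (7.89%) and 3 lower (3.95%), while 7.98% of all 106350 gene and class pairs were called higher and 4.45% lower. The members were thus called about as often as genes at large, and 67 pairs were called in neither direction. The median log2 ratio over the members was 0.06 in all cells, where the median gene stood at 0.03, and ran from −0.03 in interneuron-like to 0.12 in subcortical neuron-like cells, where the median gene stood at 0.08.

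Set against all genes of the same class, the calls fell as follows. In subcortical neuron-like cells 3 of 9 tested members were called higher and 0 lower, where 19.7% of all genes were called higher and 9.57% lower. In endothelial-like cells 1 of 10 was higher and 1 lower, with a background of 6.41% and 5.9%, and in OPC-like cells 1 of 7 was higher and 1 lower, with 6.37% and 6.14%. In excitatory neuron-like cells 1 of 10 was higher and 0 lower, with 10.4% and 1.15% of all genes, and in interneuron-like cells 0 were higher and 1 of 10 lower, with 6.42% and 1.9%. No member was called in the other 4 classes, where the background of higher and lower calls was 3.15% and 4.11% in astrocyte-like, 6.35% and 1.69% in oligodendrocyte-like, 6.74% and 3.02% in microglia-like and 4.42% and 7.14% in meningeal or fibroblast-like cells. Among excitatory neurons, 0 members were called in dentate granule-like cells (background 4.12% and 1.29%), 1 of 8 was higher in CA1-like cells (14.8% and 1.7%) and 2 of 8 were higher in CA3-like cells (7.63% and 2.12%). A single member is 10% or more of the members tested in a class, so these counts are read as values only.

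**Figure D1:**
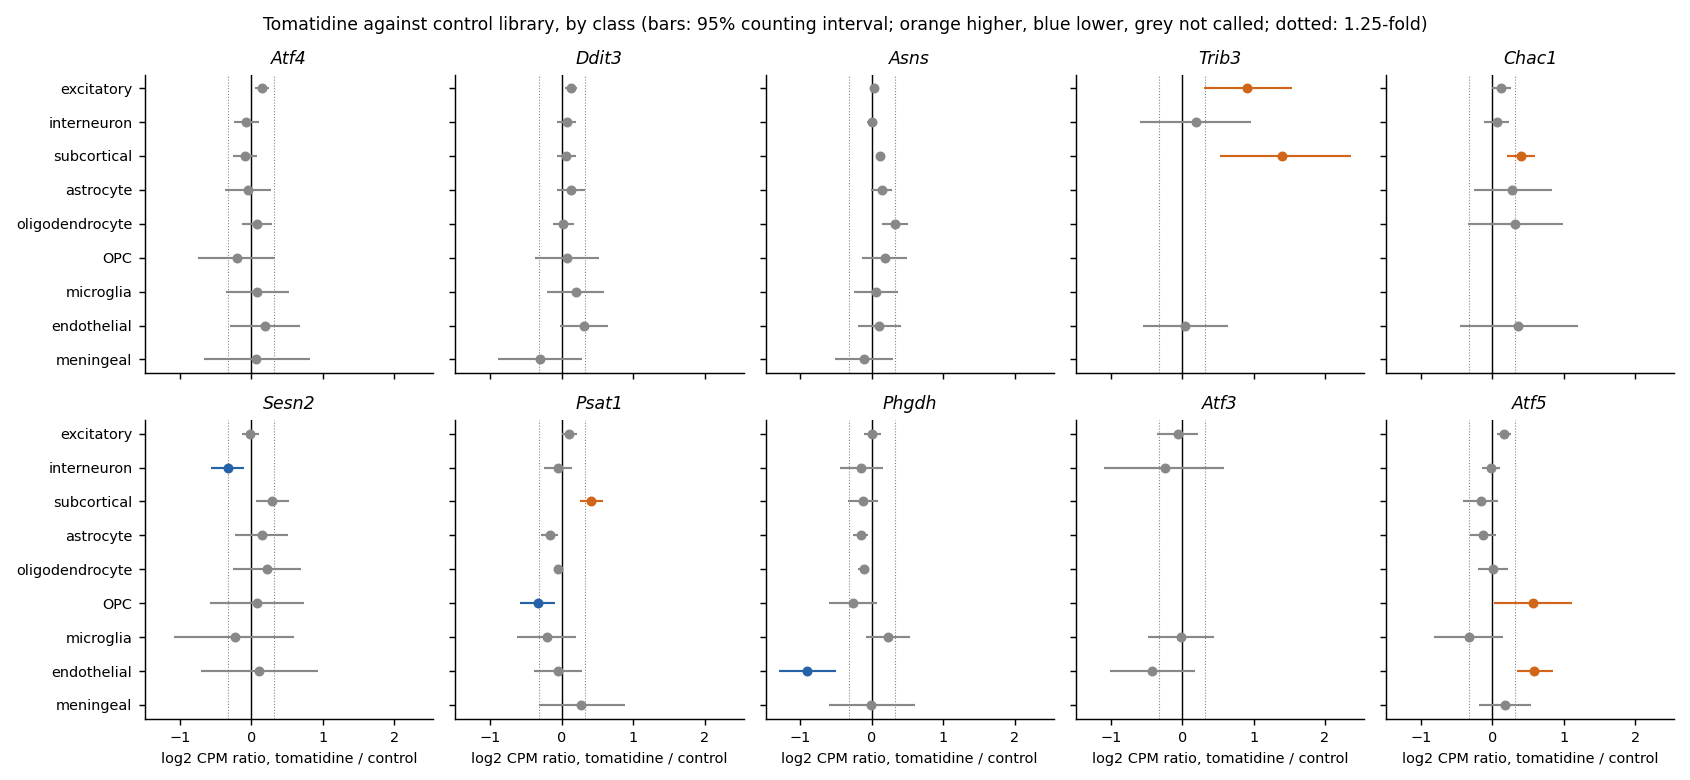
Log2 CPM ratio of the tomatidine over the control library (x axis) for each member in each of the 9 compared classes (y axis), with 95% counting intervals, for pairs with at least 50 UMIs. Most points are grey (not called) and near 0. Endothelial-like Phgdh at −0.90 and subcortical neuron-like Trib3 at 1.40 lie farthest out on each side of 0.

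Atf4 (chr15:80255184-80257541, plus strand), the transcription factor at the centre of the response, was called in none of the 9 classes. Over all kept cells it had 4466 UMIs in the control and 4518 in the tomatidine library, or 21.6 and 22.5 CPM, a log2 ratio of 0.06 (0.00 to 0.12). Excitatory neuron-like cells, the largest class, had 17.2 CPM in the control and 19.0 in the tomatidine library. That log2 ratio of 0.15 (0.05 to 0.25) was the only one among the 9 classes whose interval left out 0, and it was below the fold of the call. Within that class, dentate granule-like cells had 12.5 and 14.5 CPM, a log2 ratio of 0.21 (0.04 to 0.38), while CA1-like cells had 21.3 CPM in both libraries. A sum over all cells moves with the mix of classes as well as with the level in each. The ratio lay above 0 in 5 of 9 classes and in 13 of 26 clusters with at least 50 UMIs. Counting alone left room for a change in the small classes, since the interval ran from −0.75 to 0.33 in OPC-like (oligodendrocyte precursor-like) and from −0.29 to 0.68 in endothelial-like cells.

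The level of Atf4 differed more between classes than between libraries. It was highest in interneuron-like cells, at 44.0 CPM in the control and 41.9 in the tomatidine library, above microglia-like cells at 29.2 and 30.9, with intervals apart in both libraries. Astrocyte-like cells were lowest, with 14.0 and 13.5 CPM. Over both libraries the highest class stood 3.13-fold above the lowest. The 5 genes whose log2 levels over the 9 classes in 2 libraries ran most like those of Atf4, among 11809 genes, were Rragc with a Pearson r of 0.878, Atp6v1g1 with 0.876, Bzw1 with 0.874, Creb3 with 0.859 and Hat1 with 0.836. These are descriptions over 18 points that share libraries and depth.

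**Figure D2:**
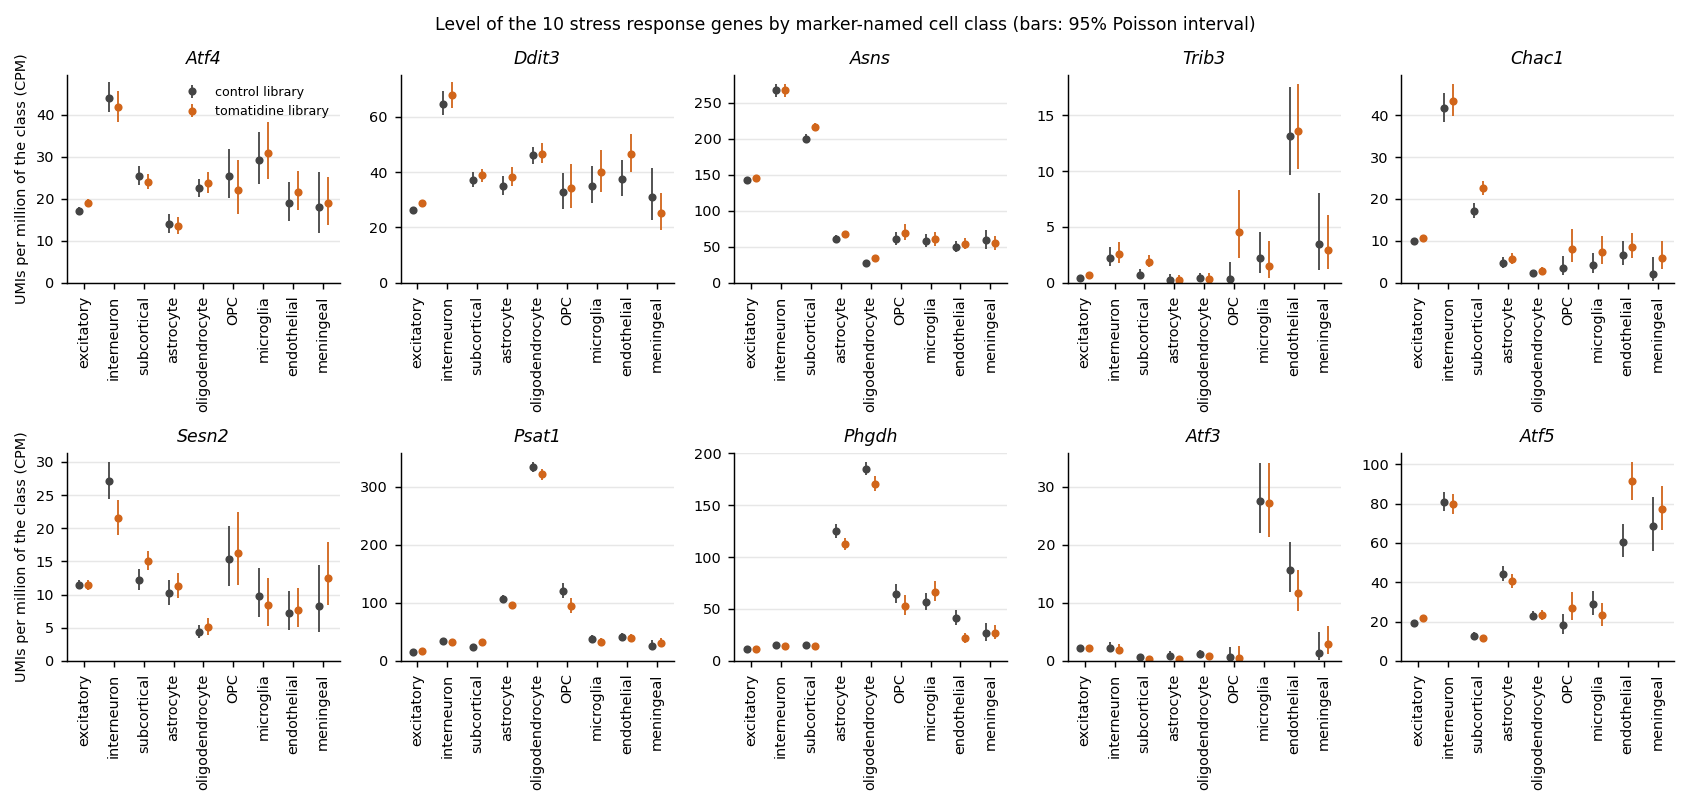
Level of each member (y axis, CPM, from 0) in each class (x axis) in the control (dark) and tomatidine (orange) library, with 95% Poisson intervals. The pair of points of a class mostly lies close together beside the distance between classes, with exceptions such as endothelial-like Atf5 (60.7 and 91.3) and Phgdh (41.2 and 22.0). Psat1, for one, had 333 and 321 CPM in oligodendrocyte-like against 16.1 and 17.3 in excitatory neuron-like cells.

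Ddit3 (chr10:127290774-127296288, plus strand) encodes CHOP, the factor that joins ATF4 in prolonged stress. It had 35.3 CPM in the control and 38.3 in the tomatidine library over all cells, a log2 ratio of 0.12 (0.07 to 0.17). Its ratio was above 0 in 8 of 9 classes and called in none. The largest values on each side were 37.5 against 46.4 CPM in endothelial-like cells, 0.31 (−0.03 to 0.64), and 31.1 against 25.1 CPM in meningeal or fibroblast-like cells, −0.31 (−0.89 to 0.28). Like Atf4 it was highest in interneuron-like cells, at 64.8 and 67.9 CPM, and its spread over classes was the narrowest of the members, 2.42-fold.

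Atf5 (chr7:44812256-44816658, minus strand), a factor related to ATF4 and linked to the mitochondrial stress response, was higher with tomatidine in endothelial-like cells, which numbered 303 and 421. It had 212 UMIs, or 60.7 CPM, in the control and 356 UMIs, or 91.3 CPM, in the tomatidine library, 1.5-fold and a log2 ratio of 0.59 (0.34 to 0.84). The share of endothelial-like cells with an Atf5 UMI was 33.3% in the control and 30.4% in the tomatidine library. These shares are not at equal depth, since the median cell had 6137 UMIs in the control and 4526 in the tomatidine library. Cells with 5 or more Atf5 UMIs numbered 4 and 15, and the cell with most of them held 17 and 28. With every cell weighted alike the log2 ratio was 0.34, and with a tighter filter that kept at most 6000 genes and under 10% mitochondrial UMIs per cell and was clustered anew (below, the tighter filter) it was 0.06. In the tomatidine endothelial-like cells 8 of 10 mural markers were higher, with sums of 6419 and 7872 CPM, as were 9 of 10 interneuron markers (286 and 547), while all 10 astrocyte markers were lower. All 10 mural markers were raised in the endothelial-like cluster against the other cells, beside all 9 endothelial markers. The part of these markers in the Atf5 difference was not tested. In OPC-like cells Atf5 was also called higher, with 56 and 60 UMIs, or 18.3 and 27.1 CPM. There 21 of the 60 UMIs came from 1 cell, and without the highest cell of each library the log2 ratio was 0.05 (−0.58 to 0.68) in place of 0.57. By level, interneuron-like cells (80.9 and 79.9 CPM), endothelial-like cells and meningeal or fibroblast-like cells (68.5 and 77.1 CPM) were not apart from each other in both libraries. Subcortical neuron-like cells were lowest, at 12.8 and 11.4 CPM.

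Atf3 (chr1:191170296-191218039, minus strand), an immediate stress factor, stood out in 2 of the 9 classes. Microglia-like cells had 87 and 75 UMIs, or 27.6 CPM in the control and 27.3 in the tomatidine library, 12.3-fold and 14.9-fold above all other cells. Endothelial-like cells had 15.7 and 11.8 CPM, a log2 ratio of −0.42 (−1.01 to 0.17). No other class passed 3 CPM in either library. Over all cells Atf3 had 2.63 and 2.18 CPM, −0.27 (−0.45 to −0.09), and it was called in none of the 4 classes with enough UMIs. In dentate granule-like cells, at 3.94 and 4.38 CPM, its UMIs were held by few cells. Only 3.16% and 2.59% of these cells had a UMI, the top 1% of cells held 68.3% and 78.3% of the UMIs, and 1 cell held 27 in the control and 34 in the tomatidine library. The dentate granule-like cluster led by C1ql2 had 7.97 and 8.85 CPM of Atf3, against 0.672 and 1.01 CPM in the one led by Ryr1. Astrocyte-like cells, which had little of it, had an Atf3 UMI in 0.514% and 0.254% of cells, at a median depth of 3835 and 4335 UMIs, against 4.83% and 6.49% of microglia-like cells at 3070 and 2840. The genes most like Atf3 over the classes were Slfn2 (r of 0.945), Pik3r6 (0.945), Serinc3 (0.943), Pfn1 (0.942) and Gpr160 (0.939).

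Asns (chr6:7675169-7693254, minus strand), which makes asparagine from aspartate and glutamine, followed neurons. Interneuron-like cells had 267 CPM in both libraries, subcortical neuron-like cells 200 and 217, and excitatory neuron-like cells 143 and 145. No glial or vascular class passed 69.1 CPM, and the lowest values were 27.8 and 34.6 CPM in oligodendrocyte-like cells, 8.71-fold below the highest class over both libraries. The oligodendrocyte-like difference, a log2 ratio of 0.32 (0.14 to 0.50), missed the fold of the call by a small margin, and Asns was called in no class. In these cells 8 of 10 interneuron markers were higher (sums of 211 and 275 CPM), as were all 8 subcortical neuron markers (101 and 129). Excitatory neuron markers summed to 772 and 782, with 5 higher and 4 lower. The part of these markers was not tested. Oligodendrocyte-like cells fell into 2 clusters. The one led by Plin4 had 46.0 CPM of Asns in the control and 59.6 in the tomatidine library, and the one led by Klk6 had 15.4 and 20.

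Psat1 (chr19:15904678-15947337, minus strand) and Phgdh (chr3:98313170-98339990, minus strand), enzymes of the pathway that makes serine from a glycolytic intermediate, had the opposite distribution. Psat1 stood at 333 and 321 CPM in oligodendrocyte-like cells, 11.1-fold and 10.2-fold above all other cells, followed by OPC-like cells with 120 and 95.3 CPM and astrocyte-like cells with 107 and 95.6, which were not apart from each other. Phgdh stood at 185 and 171 CPM in oligodendrocyte-like cells, apart from the next class, astrocyte-like cells with 125 and 112. Against all other cells astrocyte-like cells had 3.77-fold the Phgdh level in the control and 4.06-fold in the tomatidine library, a log2 ratio of 1.96 over both. Excitatory neuron-like cells were lowest for both enzymes, with 11.8 and 11.9 CPM of Phgdh. Over the 18 points of class and library, log2 levels of Psat1 and Phgdh had a Pearson r of 0.88 with each other, while Asns had −0.64 with Psat1 and −0.80 with Phgdh. The genes most like Phgdh were Tsc22d4 (0.962), Lap3 (0.959), Padi2 (0.956), Trp53bp2 (0.955) and Mbp (0.954), the last being a myelin gene.

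**Figure D3:**
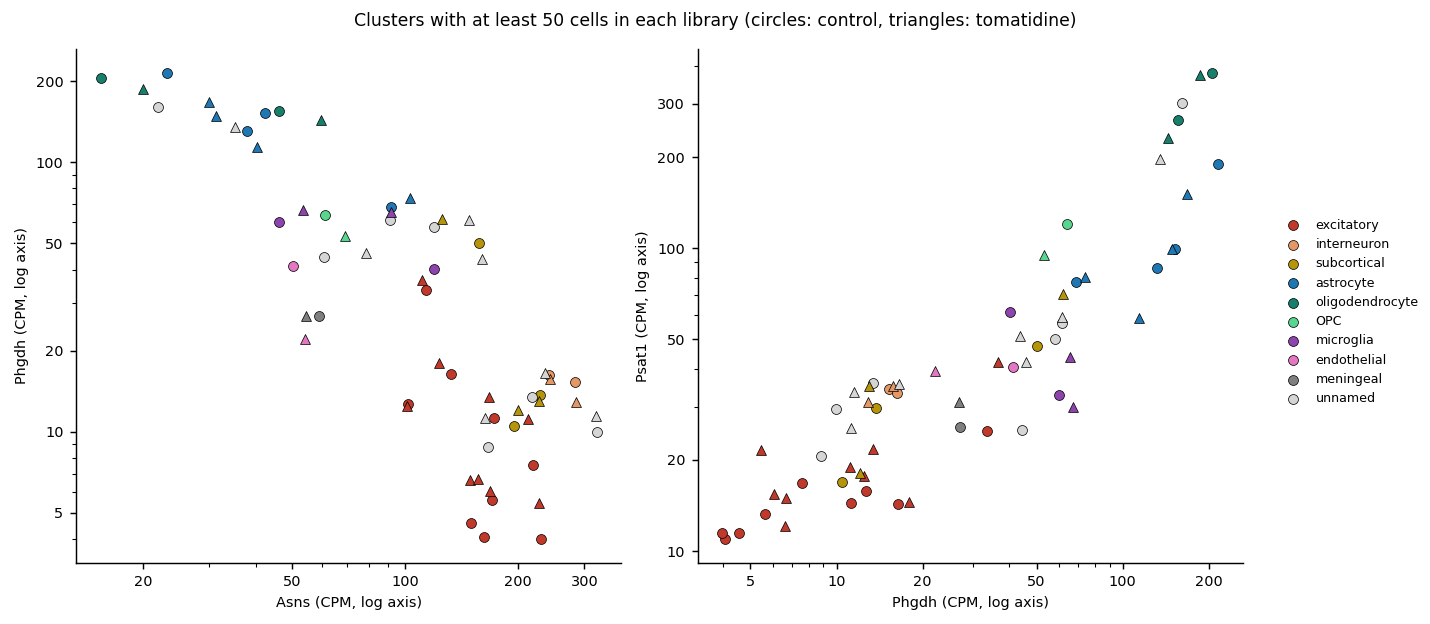
Levels of Asns and Phgdh (left) and of Phgdh and Psat1 (right) in clusters with at least 50 cells in each library, in CPM on log axes, circles for control and triangles for tomatidine, coloured by class. Clusters of neurons lie at high Asns and low Phgdh and oligodendrocyte-like clusters at low Asns and high Phgdh; Phgdh and Psat1 run together.

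The split within classes was also seen for the serine enzymes. The Plin4 cluster of oligodendrocyte-like cells had 265 and 232 CPM of Psat1 and the Klk6 cluster 380 and 373. Among the 4 astrocyte-like clusters Phgdh was lowest in the cluster led by Fam107a, at 68.6 CPM in the control and 73.9 in the tomatidine library, and highest in the cluster led by Myoc, at 215 and 167. An unnamed cluster led by Gpr84 and Ccl12 had Psat1 at 302 and 198 CPM and Phgdh at 160 and 135. All 10 oligodendrocyte markers were raised in that cluster against the other cells, and their part in these levels was not tested.

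Among the pairs called lower, Phgdh in endothelial-like cells differed most between the libraries. It had 144 UMIs, or 41.2 CPM, in the control and 86 UMIs, or 22.0 CPM, in the tomatidine library, a log2 ratio of −0.90 (−1.31 to −0.51) and 0.535 of the control level. The share of endothelial-like cells with a UMI was 23.8% in the control and 10.9% in the tomatidine library. With each cell thinned to 1500 UMIs the shares were 5.66% and 2.39%, after leaving out 48 and 75 shallower cells. Excitatory neuron-like cells, the class with the least Phgdh, had shares of 2.13% and 2.08% at that depth. Free RNA need not be alike in both classes, since the astrocyte markers summed to 853 and 1075 CPM in excitatory neuron-like cells and to far more in endothelial-like cells. Without the highest cell of each library, which held 16 and 5 UMIs, the log2 ratio was −0.82 (−1.24 to −0.41), and over the 14 settings tried it ran from −2.0 to −0.64. Markers of astrocytes, which have much Phgdh, were also lower in the tomatidine endothelial-like cells: all 10 had lower CPM, with sums of 7935 and 5735 CPM, and none was at 0. All 10 oligodendrocyte markers were lower too, with sums of 3345 and 2680, while the endothelial markers summed to 8979 and 9583 CPM and 8 of 10 mural markers were higher. What part these markers have in the Phgdh difference was not tested. Psat1, which acts on the product of Phgdh, had 40.6 and 39.2 CPM in the same cells, −0.05 (−0.39 to 0.29).

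Other differences of the serine enzymes went both ways. In OPC-like cells Psat1 had 369 and 211 UMIs, or 120 and 95.3 CPM, and was called lower at −0.34 (−0.59 to −0.09). There all 10 oligodendrocyte markers were lower, with sums of 12782 and 6805 CPM, and oligodendrocyte-like cells were the class with most Psat1. The part of these markers in the difference was not tested. In subcortical neuron-like cells Psat1 had 23.8 and 31.7 CPM and was called higher at 0.41 (0.25 to 0.58). With every cell weighted alike that ratio was −0.000593, and with the tighter filter it was −0.48. When the class was taken by a marker gate in place of clusters the ratio was larger, at 1.43. It was 0.25 with the clusters weighted alike in both libraries and 0.16 at a clustering resolution of 0.3, both below the fold of the call. In these cells 9 of 10 oligodendrocyte markers were higher, with sums of 2611 and 2908 CPM, and their part was not tested. Within excitatory neurons, CA3-like cells had 109 and 145 UMIs of Psat1, 0.59 (0.22 to 0.96), and CA1-like cells had 88 UMIs of Phgdh in each library, or 4.58 and 6.63 CPM, 0.53 (0.09 to 0.98). With the tighter filter the CA1-like value was −0.48. In CA1-like cells 9 of 10 astrocyte markers were higher too, with sums of 597 and 836 CPM. In CA3-like cells all 10 interneuron markers were higher, with sums of 139 and 245 CPM, as were 9 of 10 astrocyte markers (1439 and 1814) and 9 of 10 oligodendrocyte markers (567 and 706). The part of these markers in the differences was not tested. Atf5 was also called higher in CA3-like cells, at 15.8 and 20.8 CPM, 0.40 (0.03 to 0.76). Over 13 settings that ratio ran from 0.18 to 0.48. It was below the fold of the call with every cell weighted alike (0.18), with cells thinned to 1500 UMIs (0.18) and with all deposited cells (0.21). In astrocyte-like cells both enzymes were lower without being called, with 107 and 95.6 CPM of Psat1, −0.17 (−0.28 to −0.05), and the Phgdh levels given above, −0.16 (−0.27 to −0.05). There all 10 oligodendrocyte markers were lower, with sums of 5796 and 3746 CPM, and their part was not tested.

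Trib3 (chr2:152337422-152344032, minus strand), a pseudokinase that holds ATF4 in check, was the member with the fewest UMIs and the only one called over all cells. It had 205 UMIs, or 0.992 CPM, in the control and 301 UMIs, or 1.5 CPM, in the tomatidine library, a log2 ratio of 0.60 (0.34 to 0.86), where 9.09% of all genes were called higher and 4.85% lower. In excitatory neuron-like cells it had 37 and 62 UMIs, or 0.385 and 0.724 CPM, 0.91 (0.30 to 1.54). In subcortical neuron-like cells it had 14 and 55 UMIs, or 0.709 and 1.87 CPM, 1.40 (0.54 to 2.36). Both classes were called higher, but each value is a small count spread over many cells. The share of cells with a Trib3 UMI was 0.757% and 1.37% in excitatory neuron-like cells and 1.48% and 3.90% in subcortical neuron-like cells, against 0.114% and 0.153% of the shallower astrocyte-like cells. After thinning to 1500 UMIs the excitatory neuron-like shares were 0.0649% and 0.102%, against 0.0364% and 0.0362% in astrocyte-like cells. With the tighter filter the excitatory neuron-like ratio was 0.10. Of the 55 subcortical UMIs, 46 were in the Pou4f2 cluster, which had 10 in the control library and a ratio of 0.31 (−0.70 to 1.46) within itself. With the clusters weighted alike in both libraries the class value was 0.60.

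In level, Trib3 belonged to endothelial-like cells. They had 46 and 53 UMIs, or 13.2 CPM in the control and 13.6 in the tomatidine library, 16.8-fold and 10.8-fold above all other cells, and a Trib3 UMI was seen in 11.6% and 9.98% of them. The ratio there was 0.05 (−0.55 to 0.65), so that the class with most Trib3 gave no call.

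Chac1 (chr2:119351229-119354381, plus strand), which degrades glutathione, had 12.7 CPM in the control and 15.7 in the tomatidine library over all cells, a log2 ratio of 0.31 (0.23 to 0.38), just short of the fold of the call. That sum moves with the mix of classes too. All 6 classes with enough UMIs had a ratio above 0, and 5 of the intervals held 0. By cluster, the ratio lay above 0 in 10 of 19 with at least 50 UMIs, with a median of 0.005. Subcortical neuron-like cells alone among the 6 classes were called, with 339 and 664 UMIs, or 17.2 and 22.6 CPM, 0.40 (0.21 to 0.59). In that class 3 members were called higher (Psat1, Trib3 and Chac1), in the class with the highest share of all genes called. The median depth of these cells was 13914 UMIs in the control and 20704 in the tomatidine library, and the part of depth in these calls was not tested. When the class was taken by a marker gate in place of clusters the Chac1 ratio was −0.070. It was 0.22 with the clusters weighted alike in both libraries and 0.317 when centred on the median gene, and neither passed the fold of the call. Other settings gave larger Chac1 ratios: 0.59 with every cell weighted alike, 0.57 with cells thinned to 1500 UMIs and 0.58 with the tighter filter. In the Pou4f2 cluster Chac1 stood at 22.2 and 23.5 CPM. Interneuron-like cells had the highest level, 41.7 and 43.5 CPM, and the fold over the lowest class, oligodendrocyte-like cells with 2.23 and 2.79 CPM, was 17.2. Levels of Chac1 and Asns ran together over the classes, with an r of 0.91.

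Sesn2 (chr4:132492032-132510501, minus strand), a sestrin that limits mTORC1 when amino acids are short, had 11.7 and 12.3 CPM over all cells, 0.07 (−0.01 to 0.15). In interneuron-like cells it had 362 and 261 UMIs, or 27.1 and 21.5 CPM, and was called lower at −0.33 (−0.57 to −0.10). Of the control UMIs, 23 were in 1 cell. Without the highest cell of each library the ratio was −0.29 (−0.54 to −0.05) and no longer passed the fold, and with every cell weighted alike it was 0.16. All 10 oligodendrocyte markers were lower in the tomatidine interneuron-like cells, with sums of 2121 and 1720 CPM. All 10 astrocyte markers (855 and 984) and all 9 excitatory neuron markers (841 and 995) were higher, while the interneuron markers summed to 11535 and 10051 CPM. The part of these markers was not tested. In the other classes with enough UMIs Sesn2 was not called, and it was lowest in oligodendrocyte-like cells, at 4.36 and 5.07 CPM.

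**Figure D4:**
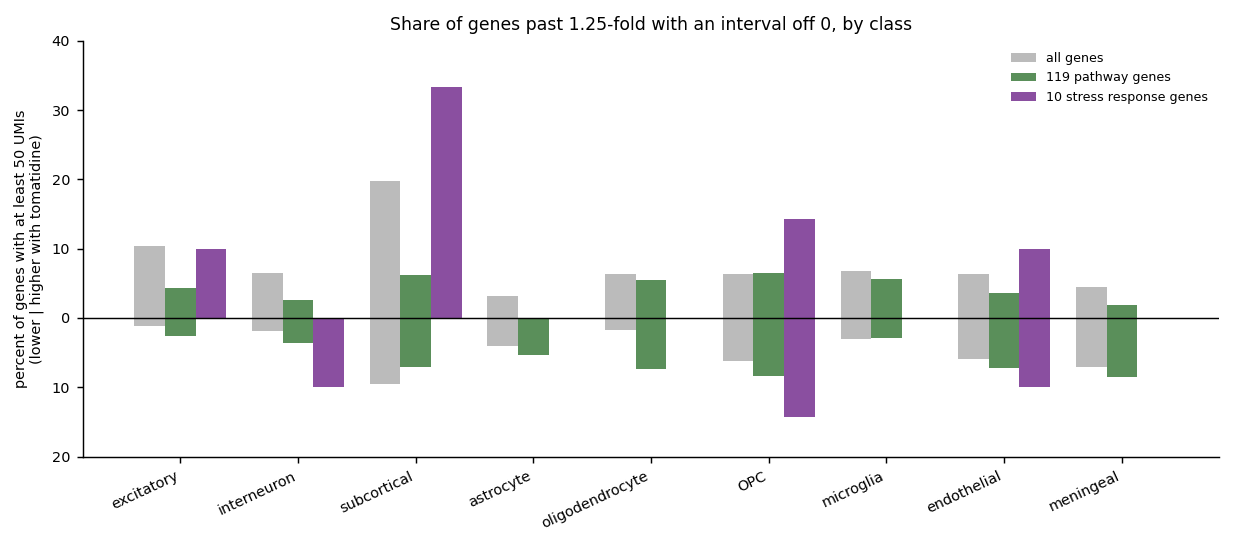
Percent of genes called higher (above 0) and lower (below 0) with tomatidine in each class, for all genes tested (grey), the 119 pathway genes (green) and the 10 members (purple). With at most 10 members a class, 1 member is 10% or more; in subcortical neuron-like cells the grey bar reaches 19.7% higher.

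The 119 other pathway genes gave 992 pairs with 50 UMIs, of which 40 (4.03%) were called higher and 58 (5.85%) lower, beside the background of 7.98% and 4.45%. The 4 eIF2 kinases gave 0 calls higher and 1 lower in 36 pairs. Over all cells Eif2ak3, the kinase PERK of the endoplasmic reticulum, had 31.2 and 32.1 CPM, and Eif2ak4, the amino acid sensor GCN2, had 36.4 and 40.3. The pairs leave out the subclasses of excitatory neurons. There Eif2ak4 was called higher in CA1-like cells, at 39.0 and 53.1 CPM, and in CA3-like cells, at 31.7 and 39.8. Of all genes, 14.8% were called higher in CA1-like and 7.63% in CA3-like cells. Amino acid transporters were called higher in 15 of 79 pairs and lower in 5. Genes listed as other targets of ATF4 or CHOP were called higher in 5 of 101 pairs and lower in 15, and C/EBP and other bZIP partners higher in 1 of 80 and lower in 10. The 14 amino acid synthesis and one-carbon enzymes beside the members gave 4 calls higher and 7 lower in 105 pairs, and the 13 aminoacyl-tRNA synthetase and export genes 4 and 6 in 117. The 19 chaperone genes of ATF6 and XBP1 gave 1 and 7 in 171, and the 8 mitochondrial stress genes 3 and 0 in 72. The 11 subunits of eIF2, eIF2B and the eIF2α phosphatases gave 2 and 2 in 99, the 10 other ATF and CREB factors 1 and 3 in 88, and the 5 relatives of the sestrins and tribbles 4 and 2 in 44.

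Some genes called in several classes are named here after their values were seen. Slc7a11, the cystine importer, was called higher in 6 of 9 classes, with 23.5 CPM in the control and 33.9 in the tomatidine library over all cells, 0.53 (0.48 to 0.58). The all-cells values in this paragraph move with the mix of classes too. Among the called classes, Slc7a11 had 2.85 and 3.91 CPM in excitatory neuron-like and 42.7 and 64.3 in endothelial-like cells. In interneuron-like cells Slc7a11 stood at 3.89 and 9.40 CPM, from 52 and 114 UMIs. Meningeal or fibroblast markers summed to 14.7 and 30.7 CPM there, and to 48.0 and 63.5 in excitatory neuron-like cells. The sums were 55.5 and 141 in OPC-like and 55.2 and 109 in microglia-like cells. They were lower with tomatidine in oligodendrocyte-like (35.5 and 33.5) and endothelial-like cells (1915 and 1857). The part of these markers was not tested. Slc1a4, a carrier of neutral amino acids, was called higher in 3 classes and lower in endothelial-like cells, where it had 51.2 and 37.9 CPM. Ddit4, an inhibitor of mTORC1, was called lower in 5 classes, with 125 and 96.9 CPM over all cells, and in microglia-like cells Ddit4 had 108 and 52.3 CPM. Ndrg1, also known to respond to hypoxia, was called lower in 5 classes, with 171 and 124 CPM over all cells. Among these classes Ndrg1 was highest in oligodendrocyte-like cells, at 1188 and 950 CPM, which numbered 3016 and 2333. Oligodendrocyte markers had lower sums with tomatidine in OPC-like (12782 and 6805 CPM), astrocyte-like (5796 and 3746) and interneuron-like cells (2121 and 1720). In subcortical neuron-like cells, also called, their sum was higher (2611 and 2908). The part of these markers in the Ndrg1 calls was not tested. Gars, the glycyl-tRNA synthetase, was called lower in 5 classes, with 50.7 and 42.1 CPM over all cells.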

How the data were processed

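The authors aligned reads to mm10 and deposited, per library, a matrix of counts: whole numbers of UMIs per gene and cell, not normalized. The submitters' processing notes name Cell Ranger 8.0.0, the matrix headers 7.1.0. Probe counts depend on each gene's probes, so each gene was compared across classes and libraries, and levels of different genes were not compared.

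Cells were kept with at least 500 UMIs, over 250 genes, a log10 gene to UMI ratio above 0.8 and under 20% mitochondrial UMIs. These are the limits in the sequencing section of the study's methods. Its quality control section also names an upper limit of 6000 genes and a lower mitochondrial limit. Those were applied only in the tighter filter, with the mitochondrial limit at 10%. Scrublet's own threshold called 0 and 2 cells and was not used, and the top 2% of its scores in each library (308 and 296 cells) were removed. The 797 and 683 cells left out held 26.0% and 22.6% of all UMIs. Integration (RPCA) and Louvain clustering at resolution 0.8 used Seurat 5.3.0 (R 4.3.3), 2000 variable genes and 30 components, with members and pathway genes left out. Each cluster was named for the class whose markers were raised in the largest share (2-fold, in 10% of its cells), given at least 3 markers and 50% of the list, and stayed unnamed where another class had more markers among its 10 leading genes, where these genes did not break a tie, where a shallow cluster had none of its own there, or, for Cajal-Retzius cells, where Trp73 was not raised. This naming rule was settled after clusters were seen, and the names are not the study's. Classes with 50 cells per library were compared.

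Intervals are exact (Poisson, conditional binomial, Clopper-Pearson), at 95%, for counting error only. Tested on simulated counts, the call found 0.682% of unchanged genes in excitatory neuron-like, 1.26% in astrocyte-like and 2.66% in endothelial-like cells, and 97%, 96% and 90% of 1.5-fold changes. The simulated counts held only the counting error that the intervals assume. They had no UMIs gathered in single cells and no other difference between the pools. The simulation therefore cannot tell what share of the calls in the data is false. Of edgeR 4.0.16 only the TMM scaling was used, as an alternative. The other software was matplotlib 3.10.9, pandas 2.3.3, scipy 1.17.1, numpy 2.4.6 and scanpy 1.11.5 under Python 3.11.15. Alternatives changed cell filters, doublets, integration, resolution, a gate of 5 markers, scaling, cells with a Y-linked UMI, equal weight per cell, thinning, cluster mix and call thresholds. The members and gene lists were chosen with earlier results of these data known. All members were named in every class, and promoter stretches were printed for members whose window held the element. Gene coordinates are those of GENCODE for GRCm38, and the promoter windows are from RefSeq, whose starts can differ.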

Additional observations from a re-analysis of the deposited data

Results flagged for a closer look

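The serine enzymes had calls in opposite directions in different classes. Psat1 was called higher in subcortical neuron-like cells, with a log2 ratio of 0.41, and in CA3-like cells, with 0.59, and lower in OPC-like cells, with −0.34. Phgdh was called higher in CA1-like cells, with 0.53, and lower in endothelial-like cells, with −0.90. The difference between the classes was not tested, since each class has 1 library per group.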

How the results depend on the processing

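With cells of more than 6000 genes or over 10% mitochondrial UMIs also left out (11776 and 11102 cells kept), Sesn2 in interneuron-like cells was at 0.16, Psat1 in subcortical neuron-like cells at −0.48 and Phgdh in CA1-like cells at −0.48, all reversed. Limits close to these are named in the study's quality control section. With every cell weighted alike, Sesn2 was at 0.16 and Psat1 at −0.000593, and with cells thinned to 1500 UMIs Sesn2 was at 0.23. With a marker gate, Chac1 in subcortical neuron-like cells was at −0.070. The cause was not tested.

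The Phgdh ratio of astrocyte-like over all other cells, 1.96, was 0.83 with that filter on genes and mitochondrial UMIs, 1.83 without integration, 1.85 and 2.16 at resolutions of 0.3 and 1.5, 1.06 with the marker gate, 2.19 in cells with a Y-linked UMI, 0.97 with cells weighted alike and 0.94 thinned. The 6 member pairs called higher were 10 with cells weighted alike, 3 at a fold of 1.5 and 3 with at least 200 UMIs. The 3 called lower were 6 with the marker gate, 8 with cells weighted alike, 6 thinned, 1 at a fold of 1.5 and 5 without the interval condition. The share of all pairs moved with these settings. With cells weighted alike 11.7% were called higher and 7.22% lower, and without the interval condition 11.7% and 7.08%. Lower calls were 5.74% with the marker gate and 6.56% thinned, and higher calls 7.59% with at least 200 UMIs. The 40 pathway pairs called higher were 73 with cells weighted alike, 13 at a fold of 1.5 and 64 without the interval condition, and the 58 called lower were 16 at a fold of 1.5. At a fold of 1.5, 3.15% of all pairs were called higher and 1.9% lower.

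Atf4 over all cells ran from 0.03 to 0.09 over the 14 settings that recompute it. Leaving out the highest cell of each library was chosen after seeing the data. No paired analysis was possible because each group has 1 library, and for the same reason no replicate could be left out. Depth limits the small classes: 14 of the 90 member pairs had under 50 UMIs, among them Trib3 and Atf3 in 5 classes each.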

Other observations

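Some cells outside the compared classes had high levels of a member. An unnamed cluster led by Mrc1 and Cd163, genes of macrophages at the borders of the brain, with Cd3e of T cells among its leading genes, had 157 control and 130 tomatidine cells and an Atf3 level of 56.2 and 40.2 CPM, above microglia-like cells in both libraries. Ependymal-like cells, only 34 and 14 of them, had 45 and 33 UMIs of Psat1, or 86.6 and 141 CPM.

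The 12 immediate early genes, induced within minutes of activity or of handling, were called higher in 11 (10.9%) and lower in 15 (14.9%) of 101 pairs with a class, where 7.98% and 4.45% of all pairs were called. Npas4, which neurons induce on calcium entry, had 25.2 CPM in the control and 34.6 in the tomatidine library in excitatory neuron-like cells, 0.46 (0.38 to 0.54). Fos went the other way in subcortical neuron-like cells, with 56.9 and 31.8 CPM, −0.84 (−0.97 to −0.71).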
